A study of Mus musculus with 6 samples.

Results

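DNA replication in mouse small intestinal crypts was described through 42 genes of S phase, the part of the cell cycle in which the genome is copied. The genes were a fixed list of origin licensing factors, replisome subunits, enzymes of deoxynucleotide synthesis and their close partners, matched by the gene symbol of the platform annotation. All 42 were measured, each by 1 probe set, among 19505 genes tested. RNA came from crypts, the epithelial pits that hold stem cells and their dividing progeny, of CSN8ΔIEC and CSN8fl/fl mice on a C57bl/6 background. CSN8fl/fl mice carry a floxed gene for CSN8, and CSN8ΔIEC mice lack it in intestinal epithelial cells, as the genotype's name says; no source used here states the Cre line. Each genotype had 3 arrays, and in both genotypes the labels give replicates 1 and 2 as 16 weeks old and female, replicate 3 as 10 weeks old and male. Villi were scraped off first and EDTA then released the crypts, and the suspension was described as mostly, not purely, crypts. The labels call the samples biological replicates without naming the mice, so a p-value here measures only how far these samples spread, which may in part be technical.

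Before a cell divides, the origin recognition complex, Cdc6 and Cdt1 load the Mcm helicase onto chromatin, a step called licensing that geminin (Gmnn) blocks once S phase has begun. Cdc45 and the GINS proteins then switch the helicase on, and primase, the replicative polymerases and the Pcna clamp copy the strands. In crypts this programme runs in stem cells and in the transit-amplifying cells above them, and it is shut off as cells move to the villus. Many of these genes are targets of E2F factors. CSN8, encoded by Cops8, belongs to the COP9 signalosome, which removes NEDD8 from cullin-RING ubiquitin ligases, enzymes that mark Cdt1, cyclin E and other S-phase proteins for destruction.

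The values were log2 signals, and differences are CSN8ΔIEC minus CSN8fl/fl on the log2 scale with their standard error, from limma fitted to all genes on 6 arrays. Adjusted p-values are from that fit by the Benjamini-Hochberg method over all genes with a threshold of 0.05, and tests are two-sided. Precision is limited by the number of arrays. The array of CSN8fl/fl replicate 3 had Pearson correlations of 0.976 to 0.986 with the other 5 arrays over all probe sets. Pairs among those 5 arrays ranged from 0.986 to 0.993. The highest correlation of CSN8fl/fl replicate 3 was thus 0.986, while that of each other array lay between 0.992 and 0.993. Signals of the Y-linked gene Eif2s3y ran against the sex labels: they were 9.87, 9.61 and 2.81 in CSN8ΔIEC replicates 1 to 3, against 9.95, 10.103 and 4.06 in CSN8fl/fl replicates 1 to 3. The arrays labelled female thus had the high signals in both genotypes, and sex and age are given here only as labels. The Cops8 signal was 7.68, 7.61 and 7.77 in CSN8ΔIEC crypts, against 8.26, 8.22 and 8.101 in CSN8fl/fl crypts, a difference of −0.50 ± 0.11 (adjusted p = 0.0865) with no overlap between the genotypes. No source used here says whether its probes lie within the deletion. The 9 markers of intestinal epithelium, Epcam and Cdh1 among them, had mean log2 signals of 12.03, 11.94 and 11.89 in CSN8ΔIEC crypts, against 11.98, 11.91 and 11.96 in CSN8fl/fl crypts.

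The S-phase genes had higher mean signals in CSN8ΔIEC crypts, by small amounts. All 42 differences were above 0, against 48.2% of all genes tested, with a median of 0.46, or 1.37-fold, and a range of 0.021 to 0.79. The median difference over all genes was −0.011. With limma, 0 of the 42 passed the threshold, against 1.08% of all genes, 0.374% higher and 0.702% lower. At an unadjusted p under 0.05, 24 of the 42 were higher, against 6.95% of all genes. In 27 of the 42 the 3 CSN8ΔIEC values all lay above the 3 CSN8fl/fl values, against 10.7% of all genes, and in 0 all lay below, against 11.7% of all genes. The genotype comparison is one of bulk RNA, in which a change in the share of dividing cells and a change in RNA per cell cannot be told apart. The members were chosen with earlier results of these data known, and their counts and medians are descriptions.

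**Figure D1:**
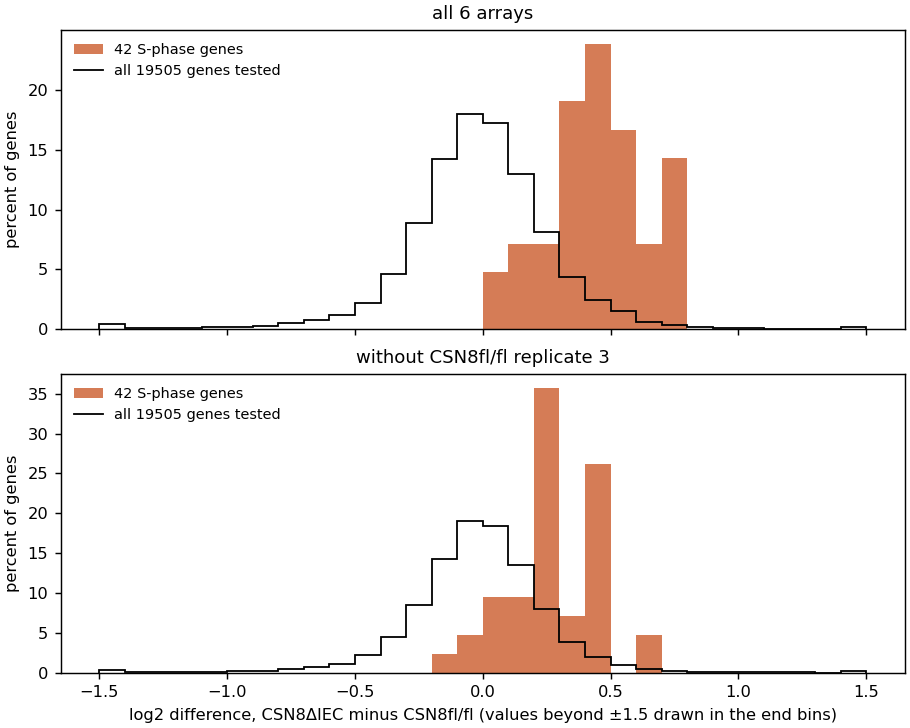
Histograms of the log2 difference, CSN8ΔIEC minus CSN8fl/fl, as percent of genes per bin, for the 42 S-phase genes (filled) and for all genes tested (line), with all 6 arrays (top) and without CSN8fl/fl replicate 3 (bottom). The S-phase genes centre on 0.46 with all arrays and on 0.24 without that array, while all genes centre near 0 in both.

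How far the genotypes separated depended on CSN8fl/fl replicate 3. That array had the lowest signal of the 6 in 40 of the 42 genes, against 25.7% of all genes, and CSN8fl/fl replicate 2 had the lowest in the other 2, Chaf1a and Ccne2. Relative to each gene's mean over the 6 arrays, the median over the 42 genes was 0.20, 0.22 and 0.25 in CSN8ΔIEC crypts, against 0.0019, −0.089 and −0.61 in CSN8fl/fl crypts. The CSN8ΔIEC arrays lay close to each other and above every CSN8fl/fl array. Without CSN8fl/fl replicate 3 the median difference was 0.24, or 1.19-fold, 39 of 42 differences were above 0, against 48% of all genes, and 0 passed the threshold, against 0.774% of all genes, 0.246% higher and 0.528% lower. At an unadjusted p under 0.05, 17 of the 42 were higher there, against 5.86% of all genes. The 3 genes with a difference below 0 there were Rfc2, Tk1 and Lig1. In 27 genes the CSN8ΔIEC values all lay above CSN8fl/fl replicates 1 and 2, against 15% of all genes. That the same 27 lay above replicate 3 as well was nearly fixed in advance, since it was the lowest array in 40 genes. The spread within CSN8ΔIEC was small, with a median SD of 0.0917 over the 42 genes, against 0.334 in CSN8fl/fl. Over all genes the median SDs were 0.134 and 0.175. The CSN8fl/fl SD was the larger one in 40 of 42, against 62.3% of all genes.

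**Figure D2:**
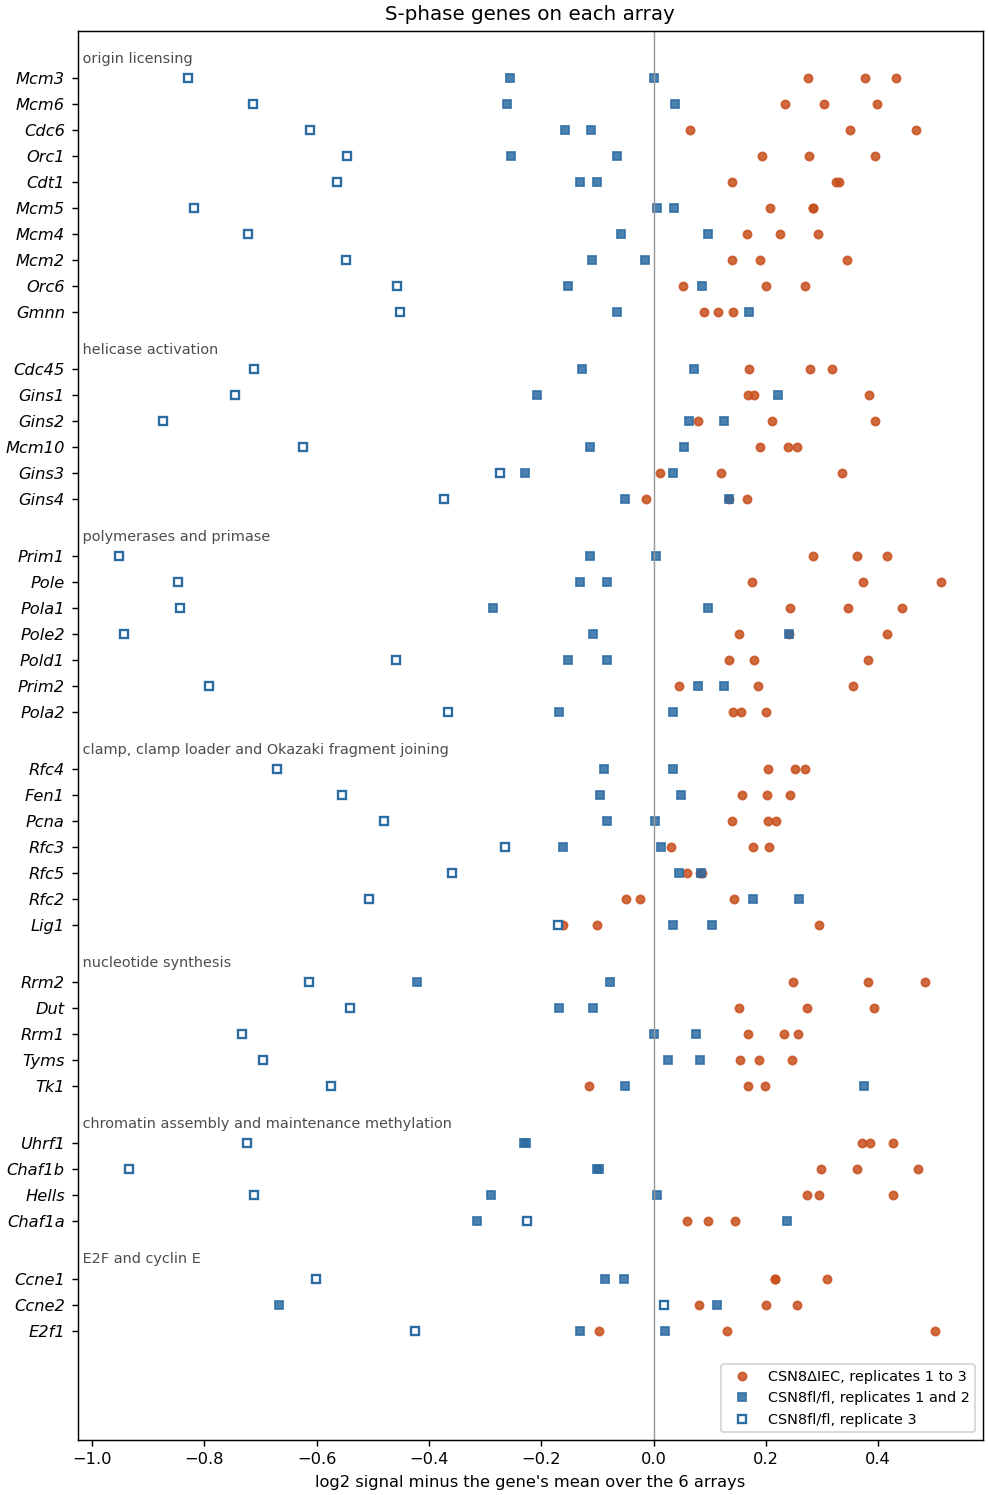
Log2 signal of each S-phase gene on each array, minus the gene's mean over the 6 arrays, grouped by role and ordered by the genotype difference within a group. Filled circles are the 3 CSN8ΔIEC arrays, filled squares CSN8fl/fl replicates 1 and 2 and open squares CSN8fl/fl replicate 3, which is the leftmost point in 40 of 42 rows.

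Origin licensing genes were higher in CSN8ΔIEC crypts by a median of 0.52 over 10 genes, or 0.33 without CSN8fl/fl replicate 3. In 8 of them the CSN8ΔIEC values all lay above the CSN8fl/fl values, against 10.7% of all genes. Orc1, the subunit of the origin recognition complex that comes and goes with the cell cycle, was at 7.61, 7.69 and 7.81 in CSN8ΔIEC crypts, against 7.35, 7.16 and 6.87 in CSN8fl/fl crypts. Its lowest CSN8ΔIEC value lay above its highest CSN8fl/fl value, and the difference of 0.58 ± 0.15 did not pass (adjusted p = 0.117). Mcm3, a subunit of the ring-shaped Mcm helicase, was at 9.42, 9.26 and 9.36 in CSN8ΔIEC crypts, against 8.99, 8.73 and 8.16 in CSN8fl/fl crypts, a difference of 0.72 ± 0.20 (adjusted p = 0.139). The genotypes of Mcm3 did not overlap, and its CSN8fl/fl values were spread the more widely. The other helicase subunits measured, Mcm6, Mcm5, Mcm4 and Mcm2, differed by 0.62, 0.52, 0.46 and 0.45, and by 0.42, 0.24, 0.21 and 0.29 without CSN8fl/fl replicate 3. Each kept its 3 CSN8ΔIEC values above the 3 CSN8fl/fl values. The helicase loaders Cdc6 and Cdt1 differed by 0.59 (adjusted p = 0.159) and 0.53 (adjusted p = 0.156), both without overlap. Orc6, a further origin recognition subunit, differed by 0.35 and Gmnn, which binds and restrains Cdt1, by 0.23. These 2 were the licensing genes whose genotypes overlapped, and for Gmnn the highest of the 6 values, 6.87, came from CSN8fl/fl replicate 1.

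Short upstream sequences of 5 of these and other members show the E2F words, short strings that E2F factors are known to bind. RefSeq promoters (build GRCm38.p6, 250 bases before to 50 after a start site) were at hand for 33 of the 42 members and were searched on both strands for TTTCGCGC, TTTGGCGC, TTTCCCGC and TTTGCCGC, which can overlap each other. At least 1 word stood in the promoters of 14 of the 33 members, or 42.4%, against 3.38% of the 15691 genes of the array with a promoter in the same table. The licensing genes held them most often, in 6 of 8 promoters, and the nucleotide synthesis genes in 0 of 5. Members with a word had a median difference of 0.56 (n = 14) and members with none of the words one of 0.44 (n = 19), with wide overlap of their ranges, 0.021 to 0.79 and 0.15 to 0.75. The search did not cover Ccne2, Gins1, Gins2, Gins4, Gmnn, Mcm4, Pole, Prim2 and Rfc2. A match describes letters and is not a measured binding site, and a promoter without these 4 exact words may still hold an E2F site. Shown are the 200 bases before the start site, 5′ to 3′ on the gene's strand with the words in capitals, of Mcm6 (chr1:128359706-128359905, minus strand) and Mcm5 (chr8:75109309-75109508, plus strand), which hold several words, and of Orc1 (chr4:108579254-108579453, plus strand), Hells (chr19:38930790-38930989, plus strand) and Uhrf1 (chr17:56304113-56304312, plus strand, 1 of its 2 listed starts), which are among the genes with the smallest p of their role.
Mcm6: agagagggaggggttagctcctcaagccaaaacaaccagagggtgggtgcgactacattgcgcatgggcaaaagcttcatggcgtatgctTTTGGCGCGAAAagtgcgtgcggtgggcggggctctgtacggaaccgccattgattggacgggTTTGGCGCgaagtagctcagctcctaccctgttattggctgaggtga
Mcm5: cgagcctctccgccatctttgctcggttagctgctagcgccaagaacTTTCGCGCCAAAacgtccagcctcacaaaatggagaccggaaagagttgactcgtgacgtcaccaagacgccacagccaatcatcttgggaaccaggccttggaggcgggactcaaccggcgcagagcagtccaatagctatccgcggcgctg
Orc1: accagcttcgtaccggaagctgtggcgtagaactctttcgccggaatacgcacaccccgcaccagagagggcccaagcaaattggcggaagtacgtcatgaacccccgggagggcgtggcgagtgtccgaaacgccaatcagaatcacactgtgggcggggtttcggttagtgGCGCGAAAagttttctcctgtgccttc
Hells: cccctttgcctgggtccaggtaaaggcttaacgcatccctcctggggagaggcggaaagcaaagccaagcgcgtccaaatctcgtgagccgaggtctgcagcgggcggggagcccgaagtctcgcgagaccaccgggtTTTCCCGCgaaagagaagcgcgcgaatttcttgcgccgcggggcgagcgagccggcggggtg
Uhrf1: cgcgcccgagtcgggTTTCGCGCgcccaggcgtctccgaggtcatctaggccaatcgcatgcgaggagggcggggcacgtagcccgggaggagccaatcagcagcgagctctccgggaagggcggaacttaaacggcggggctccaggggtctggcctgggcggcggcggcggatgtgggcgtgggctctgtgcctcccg

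Over the 6 genes that switch the helicase on, the median difference was 0.46, or 0.24 without CSN8fl/fl replicate 3. In 2, Cdc45 and Mcm10, the CSN8ΔIEC values all lay above the CSN8fl/fl values, against 10.7% of all genes. Cdc45, which joins the Mcm ring and GINS in the active helicase, was at 8.87, 9.02 and 8.98 in CSN8ΔIEC crypts, against 8.77, 8.57 and 7.99 in CSN8fl/fl crypts, a difference of 0.51 ± 0.19 (adjusted p = 0.265). Mcm10, which helps to start the assembled helicase, was at 9.49, 9.42 and 9.47 in CSN8ΔIEC crypts, against 9.12, 9.29 and 8.61 in CSN8fl/fl crypts, a difference of 0.46 ± 0.17 (adjusted p = 0.272). For both, CSN8fl/fl replicate 3 lay well below the other 5 arrays. The GINS subunits Gins1, Gins2, Gins3 and Gins4 differed by 0.49, 0.46, 0.31 and 0.19, and all 4 had overlapping genotypes. Without CSN8fl/fl replicate 3, the differences of Gins2 and Gins4 were 0.13 and 0.054.

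The polymerase and primase genes had a median difference of 0.54, or 0.35 without CSN8fl/fl replicate 3, which was the lowest array for all 7 of them. Pole, the catalytic subunit of the leading-strand polymerase, was at 7.36, 7.16 and 7.498 in CSN8ΔIEC crypts, against 6.85, 6.902 and 6.14 in CSN8fl/fl crypts. Its difference was 0.71 ± 0.21, which is 1.63-fold (adjusted p = 0.162). Pold1, the catalytic subunit of the lagging-strand polymerase, was at 7.39, 7.35 and 7.596 in CSN8ΔIEC crypts, against 7.13, 7.06 and 6.76 in CSN8fl/fl crypts, a difference of 0.46 ± 0.14 (adjusted p = 0.178). In both genes each CSN8ΔIEC value was above each CSN8fl/fl value. The same held for Prim1, the catalytic subunit of primase, and for Pola1 and Pola2, subunits of the polymerase that extends its primers, which differed by 0.71, 0.69 and 0.33. Such separation was thus seen in 5 of the 7 genes, against 10.7% of all genes. Pole2 and Prim2, accessory subunits of these enzymes, differed by 0.54 and 0.39, and by 0.20 and 0.093 without CSN8fl/fl replicate 3.

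The 7 genes of the clamp, its loader and the joining of Okazaki fragments had a median difference of 0.28, the smallest of the role groups with all arrays. Without CSN8fl/fl replicate 3 it was 0.21, and nucleotide synthesis had the smallest. Pcna, the sliding clamp that holds polymerases on DNA, was at 12.195, 12.21 and 12.13 in CSN8ΔIEC crypts, against 11.99, 11.91 and 11.51 in CSN8fl/fl crypts, a difference of 0.37 ± 0.15 (adjusted p = 0.28). Rfc4, a clamp loader subunit, was at 9.92, 9.94 and 9.87 in CSN8ΔIEC crypts, against 9.58, 9.704 and 8.998 in CSN8fl/fl crypts, a difference of 0.48 ± 0.18 (adjusted p = 0.263). Neither gene had overlapping genotypes, and Rfc3 and Fen1, the flap endonuclease of Okazaki fragments, which differed by 0.28 and 0.40, did not either. In these 4 of the 7 genes the CSN8ΔIEC values all lay above the CSN8fl/fl values, against 10.7% of all genes. At the other end were Rfc5, Rfc2 and Lig1, the 3 smallest differences of the 42. Lig1, the ligase that seals Okazaki fragments, was at 7.32, 7.26 and 7.71 in CSN8ΔIEC crypts, against 7.52, 7.45 and 7.25 in CSN8fl/fl crypts, a difference of 0.021 ± 0.15 with a 95% interval of −0.33 to 0.37 (adjusted p = 0.961). Its highest value came from CSN8ΔIEC replicate 3 and the other CSN8ΔIEC values lay under CSN8fl/fl replicates 1 and 2. Rfc2 was at 8.51, 8.34 and 8.32 in CSN8ΔIEC crypts, against 8.55, 8.63 and 7.86 in CSN8fl/fl crypts, a difference of 0.046 ± 0.20 with an interval of −0.40 to 0.50 (adjusted p = 0.932). Here CSN8fl/fl replicates 1 and 2 were the 2 highest arrays, and without replicate 3 the difference was −0.20. Rfc5 was at 8.14, 8.13 and 8.11 in CSN8ΔIEC crypts, against 8.09, 8.13 and 7.69 in CSN8fl/fl crypts, a difference of 0.15 ± 0.14 (adjusted p = 0.653), with 5 arrays within the range of 8.09 to 8.14 and CSN8fl/fl replicate 3 below them. The subunits of the clamp loader thus ranged from 0.046 for Rfc2 to 0.48 for Rfc4, and the difference between subunits was not tested.

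Deoxynucleotide synthesis genes had a median difference of 0.44 with all arrays and of 0.18 without CSN8fl/fl replicate 3. Rrm2, the small subunit of ribonucleotide reductase and the one that limits its activity in S phase, was at 9.33, 9.47 and 9.57 in CSN8ΔIEC crypts, against 9.01, 8.66 and 8.47 in CSN8fl/fl crypts. The genotypes were well apart, with a difference of 0.74 ± 0.16, which is 1.67-fold (adjusted p = 0.0684). Rrm2 passed when dim genes were filtered out, a filter under which 0.776% of genes were called higher, when eBayes used an intensity trend and when CSN8fl/fl replicate 1 was left out, with adjusted p-values over all alternatives between 0.0349 and 0.303. Rrm1, the large subunit, differed by 0.44, and by 0.18 without CSN8fl/fl replicate 3, against 0.62 for Rrm2. Dut, which removes dUTP before it enters DNA, was at 8.01, 8.13 and 7.89 in CSN8ΔIEC crypts, against 7.63, 7.57 and 7.195 in CSN8fl/fl crypts, a difference of 0.55 ± 0.15 (adjusted p = 0.133). The genotypes did not overlap for Dut either. Tyms, the thymidylate synthase of de novo synthesis, differed by 0.39 and Tk1, the thymidine kinase of the salvage route, by 0.17. In 4 of the 5 genes the CSN8ΔIEC values all lay above the CSN8fl/fl values, against 10.7% of all genes. Tk1 was the only one with overlapping genotypes, and its highest value, 8.59, came from CSN8fl/fl replicate 2.

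The genes of chromatin assembly and maintenance methylation had the largest median of the 7 role groups, 0.71 over 4 genes. Uhrf1, which brings the maintenance DNA methyltransferase to newly copied DNA, had the largest difference and the smallest p of all 42. It was at 9.999, 9.96 and 9.94 in CSN8ΔIEC crypts, against 9.34, 9.34 and 8.85 in CSN8fl/fl crypts. The CSN8ΔIEC values were close together and lay well above the CSN8fl/fl values, and the difference was 0.79 ± 0.15, or 1.73-fold, with a 95% interval of 0.44 to 1.14 (adjusted p = 0.0543). It passed under 6 alternatives, among them array weights and labelled sex and age as a covariate, and missed the threshold whenever 1 array was left out, with adjusted p-values between 0.028 and 0.217 over all alternatives. Without CSN8fl/fl replicate 3 the Uhrf1 difference was 0.62. Chaf1b, a subunit of the chromatin assembly factor that places histones behind the fork, was at 8.92, 8.74 and 8.81 in CSN8ΔIEC crypts, against 8.35, 8.34 and 7.51 in CSN8fl/fl crypts, a difference of 0.75 ± 0.22 (adjusted p = 0.158). Hells, a chromatin remodeller that supports DNA methylation, was at 8.09, 8.24 and 8.11 in CSN8ΔIEC crypts, against 7.82, 7.53 and 7.11 in CSN8fl/fl crypts, a difference of 0.66 ± 0.18 (adjusted p = 0.132). Both were separated between the genotypes. Chaf1a, the large subunit of the same assembly factor, differed by 0.20, and its highest value, 8.18, was that of CSN8fl/fl replicate 1.

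**Figure D3:**
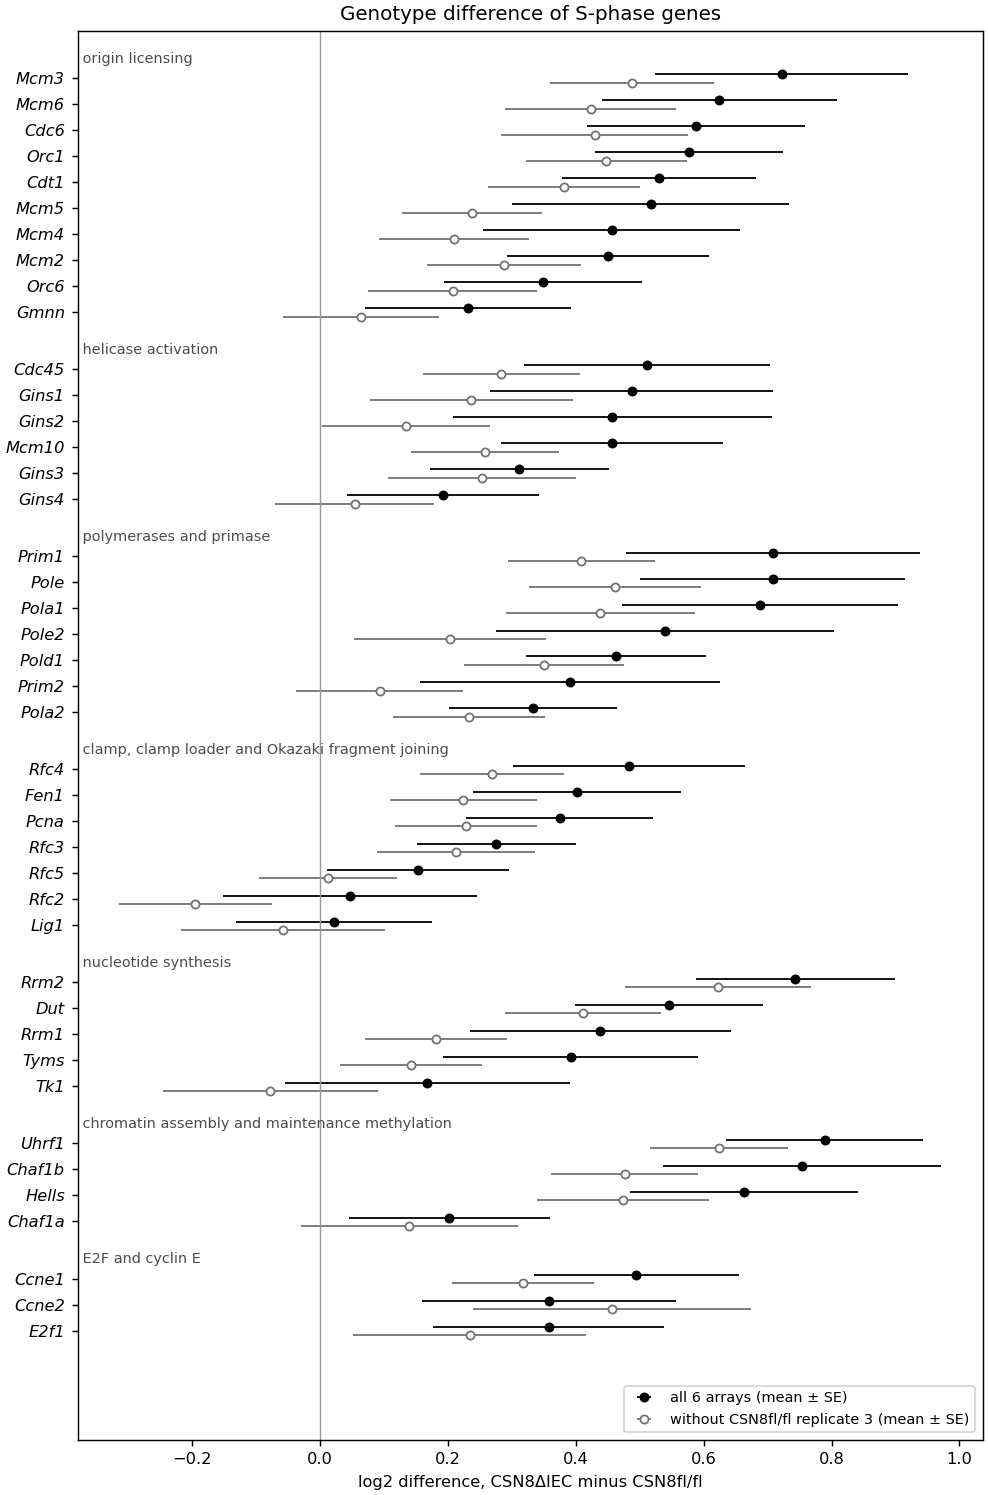
Log2 difference of each S-phase gene, CSN8ΔIEC minus CSN8fl/fl, with its standard error, from all 6 arrays (filled) and without CSN8fl/fl replicate 3 (open). Without that array the difference is lower for all genes except Ccne2, and the highest are then Uhrf1 and Rrm2, each at 0.62, while with all arrays they are Uhrf1 at 0.79 and Chaf1b at 0.75.

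Of the regulators at the entry into S phase, cyclin E1 (Ccne1), which activates Cdk2, was at 8.77, 8.67 and 8.67 in CSN8ΔIEC crypts, against 8.37, 8.404 and 7.86 in CSN8fl/fl crypts, a difference of 0.49 ± 0.16 (adjusted p = 0.199), without overlap. E2f1, a transcription factor that drives the S-phase programme, was at 7.098, 7.696 and 7.32 in CSN8ΔIEC crypts, against 7.21, 7.06 and 6.77 in CSN8fl/fl crypts, a difference of 0.36 ± 0.18 (adjusted p = 0.4). Its genotypes overlapped, since CSN8ΔIEC replicate 1 lay below CSN8fl/fl replicate 1. Ccne2 differed by 0.36 (adjusted p = 0.443), with CSN8fl/fl replicate 2 far below the other 5 arrays at 6.81.

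The distance of replicate 3 from the other replicates was set out for each genotype. Against the mean of replicates 1 and 2 of its own genotype, the median over the 42 genes was 0.028 for CSN8ΔIEC replicate 3 and −0.53 for CSN8fl/fl replicate 3. In a limma model with an interaction of genotype and labelled sex and age, 0 of the 42 passed the threshold, against 0% of all genes, and 22 had an unadjusted p under 0.05, against 10.1% of all genes. Each genotype has 1 array with the label of a male of 10 weeks, so its spread came from the other arrays. For labelled sex and age itself, 0 of the 42 passed, against 0.0154% of all genes, and 4 had an unadjusted p under 0.05, against 6.16%. In the arrays labelled as females of 16 weeks alone, 40 of the 42 differences between genotypes were above 0, with a median of 0.26, and 0 passed the threshold in limma, against 0.497% of all genes.

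Other genes of the pathway, from lists that hold no member, also had differences mostly above 0. Over 106 genes measured of 113 listed, 1 rose and 0 fell past the threshold, against 0.374% and 0.702% of all genes. The median was 0.30, and 84 differences were above 0, against 48.2% of all genes. Without CSN8fl/fl replicate 3 the median was 0.16, and 76 were above 0, against 48% of all genes. The 1 that rose was Timeless, a fork protection protein, at 7.64, 7.67 and 7.77 in CSN8ΔIEC crypts, against 7.14, 6.78 and 6.65 in CSN8fl/fl crypts. The difference was 0.84 ± 0.15, or 1.79-fold (adjusted p = 0.0373). When arrays were left out in turn, Timeless passed only without CSN8fl/fl replicate 1, and its adjusted p ranged from 0.0232 to 0.215 over all alternatives. Among the 12 other licensing and firing genes the median was 0.35, or 0.20 without CSN8fl/fl replicate 3; Cdc7, the kinase that fires origins, differed by 0.73, Wdhd1 by 0.53 and Orc4 by 0.33 (adjusted p = 0.184, 0.162 and 0.23). Among the 25 other fork and polymerase genes, with a median of 0.35, or 0.18 without that array, Rnaseh2a differed by 0.52 and Pold2 by 0.35 (adjusted p = 0.196 and 0.215).

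Other genes of nucleotide synthesis had a median difference of 0.33, or 0.23 without CSN8fl/fl replicate 3. Past the threshold were 0 of 26, against 1.08% of all genes, and 21 were above 0, against 48.2%. Dctd, the dCMP deaminase that feeds thymidylate synthesis, was at 10.19, 10.05 and 10.42 in CSN8ΔIEC crypts, against 9.67, 8.93 and 9.33 in CSN8fl/fl crypts, a difference of 0.91 ± 0.19 (adjusted p = 0.0699) that was 0.92 without CSN8fl/fl replicate 3. Its lowest array was CSN8fl/fl replicate 2. Ctps, which makes CTP, differed by 0.64 (adjusted p = 0.0849) and Ppat, the first enzyme of purine synthesis, by 0.79 (adjusted p = 0.0957).

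Genes that control the step from G1 to S went both ways. Of 28 measured, 17 differences were above 0, against 48.2% of all genes, and 11 below, with a median of 0.15. By limma 0 passed the threshold, against 1.08% of all genes. An unadjusted p under 0.05, in either direction, was found for 9, against 2918 of all 19505 genes. Without CSN8fl/fl replicate 3 the median was 0.020, with 14 of 28 above 0. E2f6, a repressor of the E2F family, differed by 0.75 (adjusted p = 0.0993), E2f3 by 0.58 (adjusted p = 0.156) and Cdkn2b, an inhibitor of Cdk4 and Cdk6, by −0.63 (adjusted p = 0.134). The inhibitor genes Cdkn1a (p21) and Cdkn1b (p27), whose proteins are substrates of cullin-RING ligases, differed by −0.34 (adjusted p = 0.433) and −0.067 (adjusted p = 0.822). Cdkn1a was at 11.34, 11.29 and 11.12 in CSN8ΔIEC crypts, against 11.35, 11.396 and 12.02 in CSN8fl/fl crypts, highest in CSN8fl/fl replicate 3, and its difference was −0.12 without that array. Of 15 genes listed around the ubiquitin ligases that act on S-phase proteins, 0 passed the threshold, against 1.08% of all genes. The list also holds Cops8, a signalosome gene and not a ligase gene. The list median was 0.16, or 0.12 without CSN8fl/fl replicate 3. Dtl, the adaptor through which a cullin ligase recognises Cdt1 on chromatin-bound Pcna, was at 8.64, 8.56 and 8.73 in CSN8ΔIEC crypts, against 8.12, 7.85 and 7.43 in CSN8fl/fl crypts. The genotypes did not overlap, and the difference was 0.84 ± 0.17 (adjusted p = 0.0659; 0.0355 to 0.233 over the alternatives). Skp2, which recognises p27, differed by 0.39 (adjusted p = 0.267).

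Mitosis genes, which act after S phase, were likewise lowest on CSN8fl/fl replicate 3, in 22 of 22, against 25.7% of all genes. Of 22 measured, 22 differences were above 0, against 48.2% of all genes, and 0 passed the threshold by limma, against 1.08%. At an unadjusted p under 0.05, 8 were higher, against 6.95% of all genes. The median was 0.45, or 0.19 without CSN8fl/fl replicate 3, against 0.46 and 0.24 for the S-phase genes. Without that array 19 of the 22 differences were above 0, against 48% of all genes. Mybl2, a transcription factor of late cell cycle genes, differed by 0.61, Kif23, a motor of cell division, by 0.60 and Bub1, a kinase of the spindle checkpoint, by 0.72 (adjusted p = 0.159, 0.198 and 0.23). Whether the shift of S-phase genes differs from that of mitosis genes was not tested.

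Some marker lists of other cells, but not all of them, moved with CSN8fl/fl replicate 3 too. For the 13 enterocyte markers, the mean log2 signal over the list was 12.49, 12.89 and 12.44 in CSN8ΔIEC crypts, against 12.67, 12.65 and 13.07 in CSN8fl/fl crypts. The 8 tuft cell markers had a mean of 6.27, 6.37 and 6.44 in CSN8ΔIEC crypts, against 7.63, 7.81 and 8.99 in CSN8fl/fl crypts. Of them 4 fell past the threshold (Dclk1, Rgs13, Siglecf and Pou2f3), against 0.702% of all genes, with a list median of −1.98. Without CSN8fl/fl replicate 3, 5 of the 8 fell past it, these and Trpm5, against 0.528% of all genes, with a list median of −1.46. For the 9 T cell and intraepithelial lymphocyte markers the mean was 7.45, 7.84 and 7.69 in CSN8ΔIEC crypts, against 7.89, 7.63 and 8.46 in CSN8fl/fl crypts. In all 3 lists CSN8fl/fl replicate 3, the array with the lowest S-phase signals, was the highest. The 8 B cell, germinal centre and plasma cell markers, by contrast, had their lowest mean there, at 5.76, 5.74 and 5.77 in CSN8ΔIEC crypts, against 6.18, 6.28 and 5.24 in CSN8fl/fl crypts. Without that array, 2 of the 8, Cd79a and Ms4a1, fell past the threshold in CSN8ΔIEC crypts, against 0.528% of all genes. They fell by 1.28 and 1.24 (adjusted p = 0.0112 and 0.0284, with ranges over the alternatives of 0.0112 to 0.803 and 0.0284 to 0.487). Jchain, which joins secreted antibody, went the other way, at 7.14, 6.56 and 7.77 in CSN8ΔIEC crypts, against 6.13, 6.303 and 4.503 in CSN8fl/fl crypts, a difference of 1.51 (adjusted p = 0.181), or 0.94 without that array. The list mean thus mixes genes that went both ways, with 2 differences above 0 and 6 below, against 48.2% of all genes above 0. The 7 crypt base stem cell markers averaged 9.003, 8.85 and 9.18 in CSN8ΔIEC crypts, against 8.96, 8.74 and 8.44 in CSN8fl/fl crypts. Their median difference was 0.40, or 0.17 without CSN8fl/fl replicate 3, and 0 passed the threshold, against 1.08% of all genes. Above 0 were 5 of 7, against 48.2% of all genes, and 4 without that array, against 48%. Ascl2, a transcription factor of these stem cells, differed by 0.73 (adjusted p = 0.0983), while Lgr5, a receptor that marks them, differed by −0.024 and Sox9 by −0.014, or by −0.19 and −0.077 without CSN8fl/fl replicate 3. Of the Paneth cell markers 5 of 10 fell, Ang4, Clps, Defa26, Pnliprp2 and Mmp7, against 0.702% of all genes, with a list median of −1.07. Without CSN8fl/fl replicate 3 all of these except Mmp7 passed, 4 of the 10, against 0.528% of all genes. Of the goblet cell markers 2 of 7 fell, Clca1 and Tff3, against 0.702% of all genes, with a list median of −0.13. With CSN8fl/fl replicate 3 left out both missed the threshold (adjusted p = 0.0641 and 0.0848, with ranges over the alternatives of 0.00993 to 0.173 and 0.0162 to 0.212). The differences of Clca1 and Tff3 were −0.80 and −0.65 with all arrays, and −0.71 and −0.62 without that array. The 6 myeloid and 8 stromal and muscle markers had medians of −0.018 and 0.22. Among them was 1 call, against 0.374% of all genes higher: Acta2 of smooth muscle, which rose by 0.66 (adjusted p = 0.0366). Without CSN8fl/fl replicate 3 the Acta2 difference was little changed, at 0.63, but missed the threshold (adjusted p = 0.0776, with a range over the alternatives of 0.0236 to 0.204). Des, also of muscle, differed by −0.49 with its CSN8ΔIEC values all below its CSN8fl/fl values (adjusted p = 0.113). The part of these cells in the S-phase differences was not tested.

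**Figure D4:**
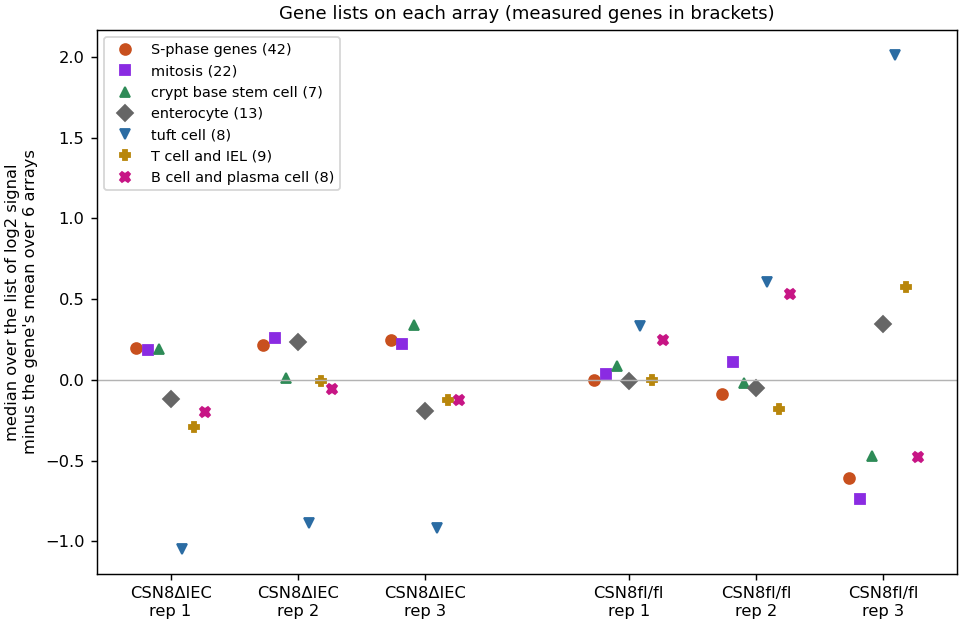
Median over each gene list of the log2 signal minus the gene's mean over the 6 arrays, for each CSN8ΔIEC array and each CSN8fl/fl array. S-phase and mitosis genes are above 0 on the CSN8ΔIEC arrays and at −0.61 and −0.74 on CSN8fl/fl replicate 3, where tuft cell, T cell and enterocyte markers are at their highest.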

How the data were processed

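Affymetrix arrays measured crypt RNA of 3 CSN8ΔIEC and 3 CSN8fl/fl samples, 1 array each. Each deposited value is the log2 signal of a probe set, made by the authors with RMA (background correction, quantile normalization and summary of probes) and Partek 6.6, per the submitters' processing notes, with settings and genome build not given in the sources used here. Of 22206 probe sets, 19572 had 1 gene symbol in the platform annotation, 0 had several and 2634 are unnamed here. The brightest probe set stood for each of 55 genes with several, which left 19505 genes. Genotypes were compared with limma 3.58.1 under R 4.3.3, using lmFit and eBayes without covariate or filter, and Benjamini-Hochberg adjustment ran over every gene; the fit was tested on simulated data. Values of members are given in full for those past the threshold, the 2 with the smallest p in each role and the 3 largest and 3 smallest differences; of other lists, up to 3 genes with the smallest p are named, with Cops8, Cdkn1a and Cdkn1b always. Cd79a, Ms4a1, Lgr5, Sox9 and the further markers past the threshold were named after their values were seen. Members and lists were chosen with earlier results of these data known. All 42 members passed the filter on dim genes that served as an alternative. Other alternatives were other scalings, array weights, a trended variance, labelled sex and age, the replicate number as a block and leaving out each array. Same-numbered arrays did not deviate together (correlations of their deviations from the genotype means of 0.117, −0.024 and 0.038 for replicates 1, 2 and 3), so the numbers were not taken to pair samples. Arrays have no read depth. Genes listed but not measured were not analysed here.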

Additional observations from a re-analysis of the deposited data

How the results depend on the processing

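The difference of the S-phase genes kept its sign in the median under every alternative run, from 0.24 without CSN8fl/fl replicate 3 up to 0.58 with CSN8fl/fl replicate 2 left out. The number of members past the threshold, 0 as reported, was 1 (Uhrf1) with labelled sex and age as covariate, with arrays centred on their median, with a repeated quantile normalization and with array weights, and 2 (Uhrf1 and Rrm2) with dim genes filtered out and with a trended, robust eBayes; it lay between 0 and 1 (Rrm2) with 1 array left out. Over all genes, 225, 213, 203 and 285 passed under the first 4 of these settings and 297 of 13653 and 298 of 19505 under the last 2. Genes past the threshold over the whole table, 210 as reported, numbered between 41 (without CSN8ΔIEC replicate 1) and 228 (without CSN8fl/fl replicate 1) with 1 array left out and 97 in labelled females alone. They numbered 109 when CSN8fl/fl replicate 2 was absent, 122 when it was CSN8ΔIEC replicate 2 and 114 when it was CSN8ΔIEC replicate 3. In the other pathway lists, 1 gene as reported became 0 with the replicate block, with labelled sex and age as covariate and in labelled females alone, 2 with dim genes filtered out and with array weights, 3 with the trended eBayes, and 0 to 6 with 1 array left out. With the replicate number as a block, 0 members and 202 genes in all passed, and Timeless did not (adjusted p = 0.0704). The fitted split of higher and lower calls, 73 and 137, was 84 and 129 after centring on array medians. Promoter words were found in 14 members, or in 10 with TTTCGCGC and TTTGGCGC alone. The sign turned for Rfc2, Lig1 and Tk1, for Tk1 to −0.078 without CSN8fl/fl replicate 3, against 0.17 as reported: Rfc2, 0.046 as reported, was −0.16 in labelled females alone and −0.058 with array weights, and between −0.20 and 0.19 with 1 array left out; Lig1, 0.021 as reported, was −0.20 in labelled females alone, −0.030 with array weights, and between −0.12 and 0.11 with 1 array left out. Why these values changed was not tested, beyond the smaller number of arrays or genes that some alternatives have by construction. The 6 arrays limit what can be called.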

Other observations

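Words of the E2F kind were also counted in the promoters of the other lists. At least 1 stood in 9 of 21 promoters of the genes that control the step from G1 to S, in 4 of 12 of the other licensing and firing genes and in 6 of 22 of the other fork and polymerase genes. They stood in 1 of 20 promoters of the mitosis genes and in 1 of 25 of the other nucleotide synthesis genes, against 3.38% of the array's genes. The mitosis and S-phase genes had medians of 0.45 and 0.46 in the genotype comparison, or 0.19 and 0.24 without CSN8fl/fl replicate 3. Whether promoter words go with the genotype difference was not tested.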
